A study of Drosophila melanogaster with 12 samples.

Results

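Gene expression in Drosophila melanogaster larval eye discs that overexpressed the cell cycle activator dE2F1 with its partner dDP was compared with discs that carried the driver alone. The 6 arrays described here were chosen by their titles and genotypes: 3 arrays of GMR-Gal4/+; UAS-dE2F1,UAS-dDP/+ discs and 3 arrays of GMR-Gal4/+ discs. They are 6 of the 12 arrays and 2 of the 4 genotypes of the series. The other 2 genotypes, also with 3 arrays each, combined the same transgenes with a microRNA (UAS-dE2F1,UAS-dDP/+ with GMR-Gal4/UAS-miR-11) or held the microRNA alone (GMR-Gal4/UAS-miR-11), and supplied a second comparison of dE2F1/dDP in which no array of the first was used. All genotypes share GMR-Gal4, which drives the transgenes behind the morphogenetic furrow, so disc cells ahead of the furrow are in each sample without the transgene. Discs were taken at the third larval instar from animals reared at 25 degrees Celsius, and 100 ng of total RNA was made into biotin-labelled cRNA for Affymetrix arrays. The labels call the replicates biological and say nothing more of their source, so the p-values measure the spread between these samples only. The larval stage is the only age given, and no source used here gives the number of discs per sample.

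E2F transcription factors bind DNA as dimers with DP proteins and switch on the genes that a cell needs to enter and complete S phase, among them cyclin E, the MCM helicase, DNA polymerase alpha and ribonucleotide reductase. Retinoblastoma proteins, Rbf in the fly, bind E2F and hold these genes down. In the eye disc, cells stop in G1 within the furrow, pass through a further synchronous division behind it and then differentiate, and excess dE2F1 with dDP in this region is known to force S phase and cell death.

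Arrays of 1 genotype differed among themselves. The first principal component of all 12 arrays held 63.1% of the variance. Its scores were -49.9, -44.7 and 34.4 on the dE2F1/dDP arrays (replicates 1 to 3, the order used throughout), against 49.8, -1.9 and -9.3 on the driver control arrays. Replicate 3 of dE2F1/dDP and replicate 1 of the control therefore stood apart from the other arrays of their groups, both toward higher scores. For dE2F1/dDP this was the side of the control arrays, and for the control it was the side away from the other 2 dE2F1/dDP arrays. The scores were -30.1, 1.7 and -19.9 with dE2F1/dDP and miR-11, against -34, 20.6 and 83.3 with miR-11 alone. Replicate 3 of miR-11 alone thus had the highest score of all 12 arrays. All 6 eye disc marker genes (ey, so, eya, gl, elav, ato) were measured, and their median log2 level per array was 8.83 to 9.71 with dE2F1/dDP and 8.56 to 9.14 in the control. Markers of other tissues were present too. The median of 5 salivary gland glue genes was 9.0 to 13.45 with dE2F1/dDP and 8.36 to 11.43 in the control, that of 3 measured fat body genes was 7.58 to 9.23 with dE2F1/dDP and 8.22 to 9.11 in the control, and that of 4 muscle genes was 9.28 to 10.85 with dE2F1/dDP and 9.90 to 10.30 in the control. For 4 blood cell genes it was 5.54 to 6.73 with dE2F1/dDP and 5.54 to 6.06 in the control. None of these lists separated the groups, and their part in the results was not tested. In such bulk samples fewer cells of a type and less RNA per cell cannot be told apart.

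Array values are log2 expression per probe set, and the value table names no genes. A gene was tied to its probe set where the 3 average fold changes of the authors' deposited gene table equalled those computed from the arrays. This identified 12770 of 13281 genes (96.2%), against 0.241% after the fold changes were shuffled between genes. Levels of different probe sets are not compared with each other, except that a few values near the low end of the arrays are pointed out.

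Only a few genes changed beyond the spread between arrays. Of 18769 probe sets, 6 were higher (0.032%) and 6 lower (0.032%) with dE2F1/dDP than in the driver control at an adjusted p under 0.05 in limma with Benjamini-Hochberg adjustment, and 11 of the 12 were tied to a gene. The direct comparison of dE2F1/dDP with miR-11 alone gave 9 higher (0.048%) and 20 lower (0.107%), and that of dE2F1/dDP and miR-11 with miR-11 alone 3 higher (0.016%) and 7 lower (0.0373%). The mean dE2F1/dDP effect over both backgrounds, a comparison added after seeing the data, gave 14 higher (0.0746%) and 13 lower (0.0693%), and the interaction 3 higher (0.016%) and 6 lower (0.032%). Against the driver control, at an unadjusted p under 0.05, there were 315 higher (1.68%) and 386 lower (2.06%). The genes that rose were Cyp6a17, w, CG14545, CG15678 (pirk), FBgn0010549 and Ady43A. Those that fell were Gyc-89Da, CG2177 (Zip102B), CG13840, CG31436 and CG6129 (Root), beside a probe set with no gene tied to it, 1624543_s_at. None of the genes that rose is in a cell cycle list used here. The count depended on single arrays. It was 5 without dE2F1/dDP replicate 1, 6 without its replicate 2, 7 without its replicate 3, 7 without control replicate 1, 5 without control replicate 3, 6 and 19 without replicates 2 and 3 of miR-11 alone, and 6 without replicate 3 of the discs with dE2F1/dDP and miR-11. Cyp6a17, w, Gyc-89Da, CG2177 and 1624543_s_at, 5 of the 12, were called in each of the 12 fits that left out 1 array.

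The transgenes were examined first. Dp, the gene of dDP, had 11.90, 11.72 and 10.26 on the dE2F1/dDP arrays, against 7.71, 8.80 and 8.81 on the control arrays. Its lowest value with the transgene lay above its highest in the control. The difference was 2.85 ± 0.62 (SE), with an unadjusted p of 0.000929 and an adjusted p of 0.396 in limma. In discs with miR-11 the same transgenes went with a Dp level of 11.43, 11.05 and 11.03, against 9.40, 8.19 and 6.86 with miR-11 alone, a difference of 3.02 (adjusted p = 0.373 in limma). The mean of the 2 differences over all 12 arrays was 2.94 with an adjusted p of 0.0374, and it was called in 3 of 12 fits without 1 array. The authors' deposited table calls Dp higher, at 7.23-fold.

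E2f, the gene of dE2F1, did not separate the groups. It had 10.67, 10.74 and 9.59 with dE2F1/dDP, against 9.73, 9.95 and 10.30 in the control, so the groups overlapped. The difference was 0.34 ± 0.39 (SE; adjusted p = 0.929 in limma), and 0.29 in the miR-11 background. Whether the E2f probe set can detect the transgene's transcript is not stated in the sources used here.

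The white gene, w, whose mini-white form is the usual eye colour marker of fly transgenes, rose with dE2F1/dDP. It had 8.54, 7.98 and 8.11 with dE2F1/dDP, against 6.15, 5.71 and 5.72 in the control, with a gap of more than 1 log2 unit between the groups. The difference was 2.35 ± 0.16 (SE; adjusted p = 0.000156 in limma). Discs with dE2F1/dDP and miR-11 had 8.49, 8.39 and 8.43, against 6.92, 7.12 and 7.10 with miR-11 alone, a difference of 1.39 (adjusted p = 0.0268 in limma). Which transgenes carry the marker is not given in the labels, and its part in the w signal was not tested.

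**Figure D1:**
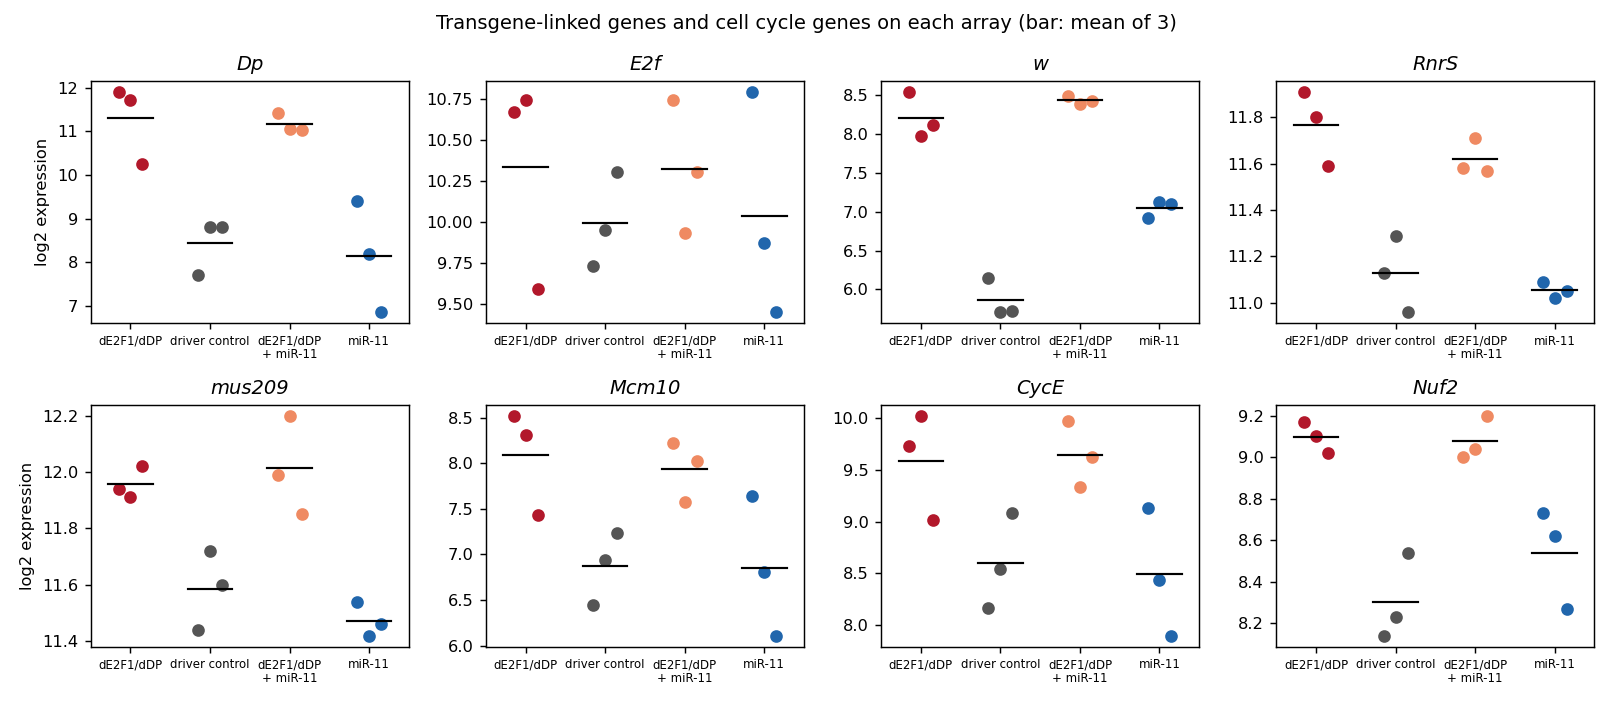
Log2 expression (y axis of each panel, own scale) of Dp, E2f, w and 5 cell cycle genes on each of the 12 arrays; each point is 1 array, in replicate order within a group, and the bar is the mean of 3. Dp, w, RnrS, mus209, Mcm10 and Nuf2 do not overlap between dE2F1/dDP and the driver control, while E2f and CycE do.

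The classic E2F target genes were all higher on average with dE2F1/dDP, by small amounts. All 21 listed genes, E2f and Rbf among them, were tied to a probe set, and all 21 differences were above 0, from 0.02 to 1.22 with a median of 0.39. Over all 12770 genes 5518 differences were above 0 and the median was -0.03. None of the 21 passed the adjusted p in limma. At an unadjusted p under 0.05 there were 6 of 21 (background 1.68%), and for 4 of 21 all dE2F1/dDP arrays lay above all control arrays (background 3.37%). In the miR-11 background, with other arrays, 20 of 21 differences were above 0 with a median of 0.59, and 13 of 21 did not overlap (background 2.68%). The list was chosen with results of these arrays known, so its counts are a description. The median without control replicate 1 was 0.20, without dE2F1/dDP replicate 3 it was 0.57, and without both it was 0.39.

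RnrS, the small subunit of ribonucleotide reductase, which makes deoxyribonucleotides, had the smallest p of the list. It had 11.91, 11.80 and 11.59 with dE2F1/dDP, against 11.13, 11.29 and 10.96 in the control. The groups did not overlap, and the difference was 0.64 ± 0.11 (SE; unadjusted p = 0.000226, adjusted p = 0.157 in limma). With miR-11 present it had 11.58, 11.71 and 11.57 with dE2F1/dDP, against 11.09, 11.02 and 11.05 without, a difference of 0.56. Its mean effect over both backgrounds was 0.60 (adjusted p = 0.0251 in limma, called in 3 of 12 fits without 1 array). RnrL, the large subunit, had 10.97, 10.77 and 9.61 with dE2F1/dDP, against 9.04, 10.20 and 10.29 in the control, and overlapped.

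The sliding clamp gene mus209, which encodes PCNA and is a standard reporter of E2F activity in the fly, was close to RnrS in pattern. It had 11.94, 11.91 and 12.02 with dE2F1/dDP, against 11.44, 11.72 and 11.60 in the control, a difference of 0.37 ± 0.11 (SE; unadjusted p = 0.00835, adjusted p = 0.929 in limma). The difference in the miR-11 background was 0.54. Neither background had overlapping groups.

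Mcm10, a replication initiation factor, had the largest difference of the list. It had 8.52, 8.31 and 7.43 with dE2F1/dDP, against 6.44, 6.94 and 7.24 in the control, a difference of 1.22 ± 0.40 (SE; adjusted p = 0.929 in limma). The third dE2F1/dDP array lay only just above the highest control array. CycE, the cyclin that drives entry into S phase, had 9.73, 10.02 and 9.01 with dE2F1/dDP, against 8.17, 8.54 and 9.08 in the control. Its groups overlapped through the same array, with a difference of 0.99, and they did not overlap in the miR-11 background (1.15).

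The other members differed by less or varied more. The mitotic kinase gene cdc2 did not overlap (11.68, 11.78 and 11.87 with dE2F1/dDP, against 11.64, 11.33 and 11.38 in the control), with a difference of 0.33. Differences were 0.83 for DNApol-alpha180, the catalytic subunit of DNA polymerase alpha, 0.62 for Orc1 of the origin recognition complex, 0.62 for the licensing factor dup, 0.55 for the mitotic cyclin CycA and 0.47 for Rbf, and each of these overlapped. The MCM helicase genes lay between 0.22 (Mcm3) and 0.43 (Mcm2), with dpa at 0.39, Mcm5 at 0.30, Mcm7 at 0.28 and Mcm6 at 0.24. With miR-11 these 6 helicase genes differed by 0.44 to 0.85, without overlap in any. Control replicate 1 held the lowest value of all 6 arrays for each of the 6. Without it the difference was -0.18 for Mcm6 and at 0 for dpa.

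Wider cell cycle groups other than nucleotide supply shifted in the same direction against the driver control, with a minority of members outside the array spread. Of the 32 measured replication genes 27 were higher on average, with a median of 0.26, and 4 did not overlap, all higher (background 3.37%): Mcm10, mus209, Orc6 (0.31) and DNApol-alpha73 (0.36), a further subunit of DNA polymerase alpha. The lowest was CG15220 at -0.56. The median was 0.07 without control replicate 1. The same list had a median of 0.49 in the miR-11 background, with 17 of 32 genes not overlapping, all higher (background 2.68%).

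Among 9 nucleotide supply genes only 3 were higher on average, with a median of -0.08. RnrS and dnk, the deoxyribonucleoside kinase, were the 2 of 9 that did not overlap, both higher (background 3.37%). The dnk level was 10.25, 10.14 and 10.22 with dE2F1/dDP, against 9.94, 9.69 and 9.44 in the control, a difference of 0.52 (unadjusted p = 0.00302, adjusted p = 0.674 in limma). All 8 histone supply genes were higher on average, with a median of 0.26. His2Av, the variant histone H2A, had 12.69 to 13.19 with dE2F1/dDP, against 12.31 to 12.51 in the control, a difference of 0.58, and Slbp, the stem-loop binding protein of histone mRNAs, had 10.15, 10.15 and 10.33 with dE2F1/dDP, against 9.99, 10.02 and 9.99 in the control, a difference of 0.21. Both were without overlap, as the only 2 of the 8 (background 3.37%), and neither passed the adjusted p. The p105 subunit gene of chromatin assembly factor had the largest difference, 0.85, with overlap.

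The 14 G1/S regulators had a median of 0.39, with 11 higher on average. The kinase gene cdc2c, the fly Cdk2, had 9.70, 9.36 and 9.0 with dE2F1/dDP, against 8.69, 8.79 and 8.77 in the control, a difference of 0.61. The Cdk inhibitor gene dap had 10.62, 10.71 and 10.05 with dE2F1/dDP, against 9.90, 9.83 and 9.98 in the control, a difference of 0.55. An inhibitor and its target kinase were thus both higher without overlap, as the only 2 of the 14 (background 3.37%). Rca1 was lowest at -0.39. Of 17 G2/M genes 14 were higher on average, with a median of 0.28. The phosphatase genes twe and stg, both of the Cdc25 family, differed by 0.61 (no overlap) and 0.29 (overlap), CycB3 by 0.63 and Cks85A by -0.75, the last 2 with overlap. No gene of these groups passed the adjusted p.

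Spindle and kinetochore genes held the clearest single mitotic gene. Nuf2, a subunit of the Ndc80 complex that ties kinetochores to microtubules, had 9.17, 9.10 and 9.02 with dE2F1/dDP, against 8.14, 8.23 and 8.54 in the control. The groups were separate and the difference was 0.79 ± 0.14 (SE; unadjusted p = 0.000253, adjusted p = 0.159 in limma). With miR-11 it was 0.54, and the mean effect of 0.66 had an adjusted p of 0.0448 in limma, called in 2 of 12 fits without 1 array. Of 37 spindle genes 28 were higher on average with a median of 0.30. Bub1 (0.45), a spindle checkpoint kinase, borr (0.30) of the chromosomal passenger complex and SAK (0.35), the centriole duplication kinase, also lay above the control on all arrays, so 4 of 37 did (background 3.37%). The centriole assembly gene sas-6, at -0.28, lay below it on all arrays as the 1 of 37 to do so (background 4.24%). The kinetochore gene Kmn1 had the lowest difference, -0.59, with overlap. The largest, SMC2 of condensin, had 9.71, 9.49 and 7.94 with dE2F1/dDP, against 7.63, 8.51 and 8.64 in the control, and overlapped by replicate 3.

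With every array kept, DNA repair genes had a smaller median difference than the replication genes, and the cell death genes showed no common direction. Of 29 repair genes 16 were higher on average and 13 lower, with a median of 0.17, against -0.03 over all genes. In the miR-11 background the repair median was 0.20, with 18 of 29 above 0. The 3 that did not overlap against the driver control were all lower with dE2F1/dDP: p53 (-0.37), Ku80 (-0.30) and lok, the fly Chk2 (-0.22). The background for arrays all below the control was 4.24%. Their unadjusted p-values in limma were 0.0983, 0.0536 and 0.0929. In the miR-11 background p53 was at -0.18, Ku80 at -0.03 and lok at 0.11, all with overlap, and the 2 repair genes outside the array spread there were both higher. Against the driver control the repair median was -0.01 without control replicate 1 and 0.37 without dE2F1/dDP replicate 3, where the replication median was 0.07 and 0.32. Without both arrays the medians were 0.23 for repair and 0.17 for replication, so their order depended on dE2F1/dDP replicate 3. The extremes were RecQ5 at 0.97 and Hus1-like at -0.57, both overlapping. The cell death genes rpr, grim, W (hid) and skl, which block the apoptosis inhibitor Diap1, differed by 0.06, -0.05, 0.33 and -0.33, and all 4 overlapped. For rpr, a described E2F target, the values were 7.12, 7.44 and 7.40 with dE2F1/dDP, against 7.73, 6.90 and 7.13 in the control. W had 8.80, 8.80 and 8.46 with dE2F1/dDP, against 8.58, 8.26 and 8.23 in the control. Ark, the apoptosome gene also described as an E2F target, differed by 0.02. On these arrays Ark lay at 3.53 to 3.65, grim at 2.90 to 3.18 and skl at 3.49 to 4.18. The lower quartile of array values was 3.75 to 3.97, so little can be read from the differences of these 3 genes.

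Among 13 caspase and inhibitor genes the median difference was 0.08. The caspase gene dream had 6.78, 6.90 and 6.85 with dE2F1/dDP, against 6.48, 6.21 and 6.26 in the control, a difference of 0.53 without overlap (unadjusted p = 0.00935, adjusted p = 0.929 in limma), and -0.11 in the miR-11 background. The initiator caspase gene Nc differed by 0.16, the effector Ice by -0.13 and the inhibitor Iap2 by -0.38, all with overlap. All 15 genes of the JNK and wound response list were higher on average, with a median of 0.47. The largest differences there, scarface (1.01) and puc (0.77), the JNK phosphatase, overlapped because dE2F1/dDP replicate 3 lay with the controls.

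**Figure D2:**
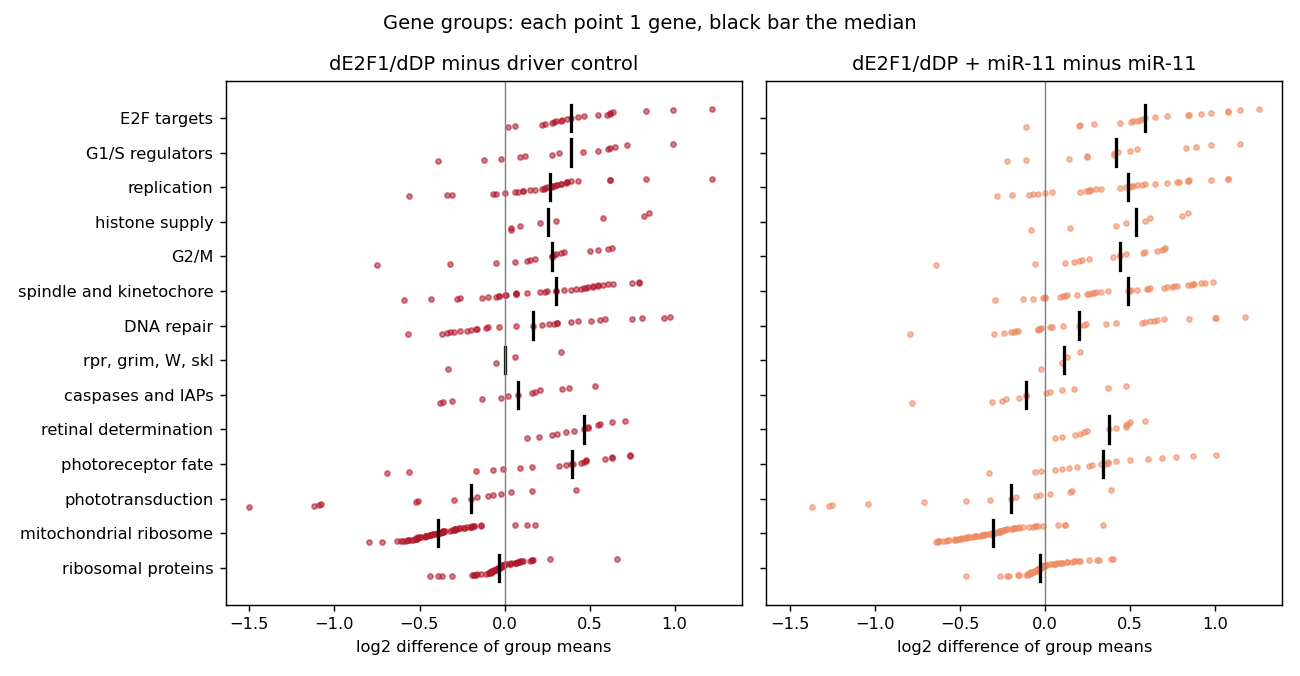
Log2 difference of group means (x axis) for 14 gene groups (rows), with dE2F1/dDP against the driver control on the left and dE2F1/dDP with miR-11 against miR-11 alone on the right; each point is 1 gene and the black bar is the group's median. Cell cycle groups and retinal determination genes lie mostly above 0 in both panels, and mitochondrial ribosomal protein genes and phototransduction genes mostly below 0.

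Groups of eye development shifted as far as the E2F targets. All 13 retinal determination genes, the eye selector network, were higher on average with a median of 0.47, with none outside the array spread. Their extreme was tio (0.71), and eya had 11.01, 10.70 and 10.13 with dE2F1/dDP, against 9.68, 10.34 and 10.35 in the control. All 13 EGFR pathway genes (median 0.45, highest pnt at 0.94), all 10 furrow genes (median 0.49, highest dpp at 0.75) and all 8 Notch pathway genes (median 0.46) were above 0, and none of them was without overlap. Among 20 photoreceptor fate genes the median was 0.40. The transcription factors B-H1 (0.39) and B-H2 (0.45) did not overlap, as 2 of the 20 (background 3.37%), while sev, the receptor of the R7 cell, was lowest at -0.69. In the opposite direction 65 of 68 mitochondrial ribosomal protein genes were lower on average, with a median of -0.39 and none outside the array spread. mRpS28 had the lowest difference, -0.80. Cytoplasmic ribosomal protein genes had a median of -0.03.

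Single arrays moved these medians. Without control replicate 1 they were 0.24 for retinal determination, 0.26 for EGFR, 0.41 for furrow, 0.08 for Notch, 0.18 for photoreceptor fate and -0.20 for mitochondrial ribosomal genes. Without dE2F1/dDP replicate 3 they were 0.75, 0.96, 0.67, 0.85, 0.68 and -0.74 for the same groups. The G2/M median was 0.11 and 0.50 under these omissions, the spindle median 0.12 and 0.56, the G1/S median 0.30 and 0.74, and the histone supply median 0.19 and 0.51.

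These shifts moved with the first component. The median deviation of the retinal determination genes from their 12-array mean was highest on the arrays with the lowest scores, and that of the mitochondrial ribosomal genes lowest. With the component as a covariate, an alternative added after seeing the data, the median was 0.03 for retinal determination, 0.04 for EGFR, -0.09 for Notch, 0.01 for photoreceptor fate and -0.04 for mitochondrial ribosomal genes. It was 0.24 for furrow genes, with 9 of 10 above 0, 0.17 for the JNK and wound response list, with 12 of 15 above 0, 0.23 for the E2F targets, with 17 of 21 above 0, and 0.20 for replication, with 27 of 32 above 0. It was 0.00 for G1/S regulators and G2/M genes and -0.05 for spindle genes. Mcm10 was called in that fit at 0.79 (adjusted p = 0.00932 in limma), Nuf2 at 0.69 (adjusted p = 0.0252) and Dp at 2.20 (adjusted p = 8.17e-06), while E2f was at -0.06, stg at -0.06 and Rbf at -0.10. The fit called 28 higher (0.149%) and 33 lower (0.176%). The component also holds part of the difference between the genotypes, so removing it can remove a part of the response. What the component stands for was not tested.

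**Figure D3:**
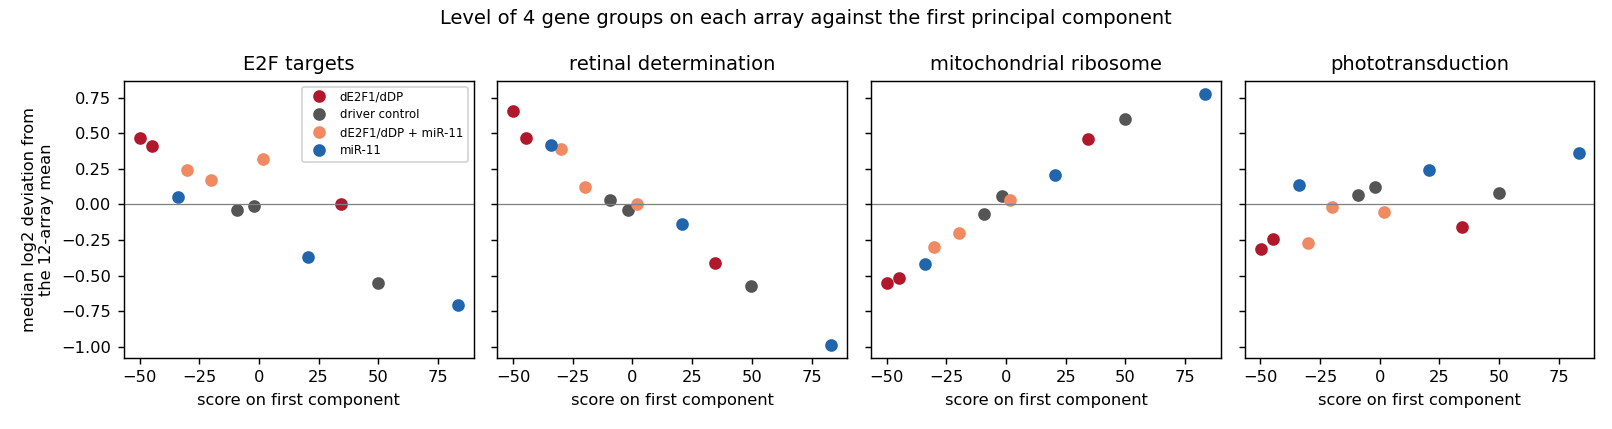
Median log2 deviation of 4 gene groups from their 12-array mean (y axis) against each array's score on the first principal component (x axis, no unit); each point is 1 array, coloured by genotype. Retinal determination and mitochondrial ribosomal genes follow the score on all arrays, while at like scores E2F targets are higher and phototransduction genes lower on arrays with dE2F1/dDP than on arrays without it.

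Phototransduction genes were lower with dE2F1/dDP. Rhodopsins are the light receptors of photoreceptor cells, and in the larva Rh5 and Rh6 are known from Bolwig's organ, the larval eye. Of the 15 genes 12 were lower on average, with a median of -0.20. The median was -0.12 without control replicate 1, -0.35 without dE2F1/dDP replicate 3 and -0.28 without both, and -0.10 with the first component as a covariate, where 6 of 15 were above 0. The fit with the component called 2 of the 15, both lower: Rh5 at -1.27 (adjusted p = 0.00189 in limma) and Arr2 at -0.76 (adjusted p = 0.0232). Of the 15, 5 lay below the control on all arrays (background 4.24%) and 6 had an unadjusted p under 0.05 on the lower side (background 2.06%). None passed the adjusted p in limma in the fit without the component. In the miR-11 background the median was again -0.20, and 6 of 15 did not overlap on the lower side (background 3.91%).

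Rh5 had 6.26, 6.49 and 6.70 with dE2F1/dDP, against 8.09, 7.95 and 7.91 in the control. The gap between the groups exceeded 1 log2 unit, and the difference was -1.50 ± 0.24 (SE; unadjusted p = 9.81e-05, adjusted p = 0.0969 in limma). Among discs with miR-11 it had 6.94, 7.43 and 7.24 with dE2F1/dDP, against 7.70, 8.26 and 8.78 without, a difference of -1.04. The authors' deposited table calls Rh5 lower, at 2.83-fold and a pfp (the estimated proportion of false positives) of 0.0125. The mean effect was -1.27 with an adjusted p of 0.0251 in limma, called in 4 of 12 fits without 1 array.

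Rh6 followed the same pattern. It had 8.41, 8.65 and 8.95 with dE2F1/dDP, against 9.71, 9.90 and 9.63 in the control, a difference of -1.08 ± 0.20 (SE; adjusted p = 0.184 in limma). In the miR-11 background the difference was -1.25, again without overlap, and the mean effect was -1.16 (adjusted p = 0.0146 in limma, called in 9 of 12 fits without 1 array). The direct comparison of dE2F1/dDP with miR-11 alone, which shares the dE2F1/dDP arrays, gave -1.76 for Rh5 (adjusted p = 0.0225 in limma) and -1.87 for Rh6 (adjusted p = 0.00499).

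The arrestins, which switch off activated rhodopsin, were lower too. Arr1 had 7.63, 8.26 and 8.83 with dE2F1/dDP, against 9.55, 9.61 and 8.93 in the control, a difference of -1.12 (adjusted p = 0.929 in limma) with a narrow gap. Arr2 had 4.72, 4.91 and 5.42 with dE2F1/dDP, against 6.52, 5.82 and 5.98 in the control, a difference of -1.09. With miR-11 these differed by -1.27 and -1.37, without overlap. inaD, the scaffold of the signalling complex and 1 of the 5 genes below the control on all arrays, was at -0.30. It had 3.46, 3.59 and 3.77 with dE2F1/dDP, against 3.92, 3.89 and 3.89 in the control. These values lie near the array lower quartile of 3.75 to 3.97, so little can be read from the difference. The channel gene trpl at -0.51 and the kinase gene inaC at -0.52 overlapped. The phospholipase gene norpA went the other way, with 8.90, 8.77 and 7.57 with dE2F1/dDP, against 7.48, 8.27 and 8.22 in the control, a difference of 0.42 with overlap. The pan-neuronal marker elav was 8.71 to 9.58 with dE2F1/dDP and 8.65 to 8.93 in the control, and the ranges overlapped. Whether the dissected tissue held Bolwig's organ or its nerve in equal amounts was not tested.

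**Figure D4:**
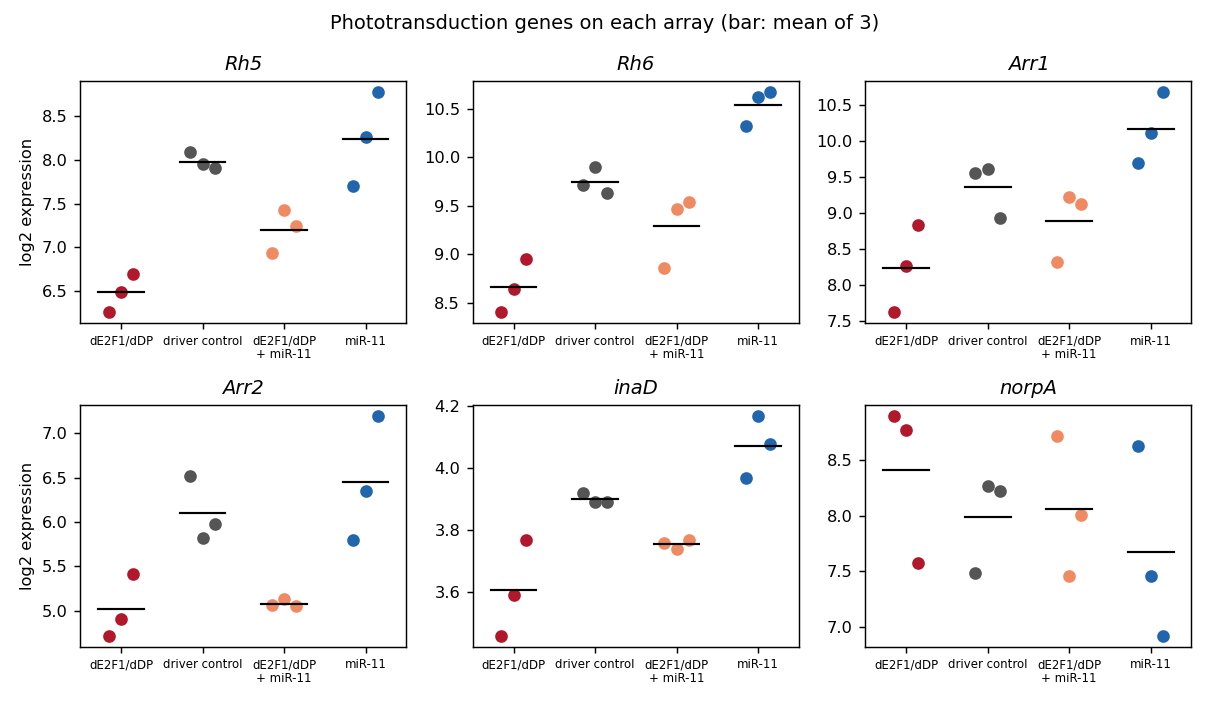
Log2 expression (y axis of each panel, own scale) of 6 phototransduction genes on each of the 12 arrays; each point is 1 array and the bar is the mean of 3. Rh5, Rh6, Arr1, Arr2 and inaD lie lower on every array with dE2F1/dDP than on its control arrays, with or without miR-11, and norpA overlaps. All inaD values, 3.46 to 4.17, lie near the low end of the arrays.

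The largest rise was that of Cyp6a17, a cytochrome P450 gene. It had 7.59, 7.99 and 8.01 with dE2F1/dDP, against 3.95, 3.48 and 3.89 in the control, a difference of 4.09 ± 0.18 (SE; adjusted p = 5.99e-06 in limma). In discs with dE2F1/dDP and miR-11 it had 3.63, 3.72 and 3.70, against 3.44, 3.76 and 4.05 with miR-11 alone, so the discs with dE2F1/dDP alone were the only genotype with a high level. The dE2F1/dDP difference without miR-11 exceeded that with miR-11 by 4.16 in the interaction test (adjusted p = 0.000154 in limma). Of the 82 measured P450 genes no other passed the adjusted p in limma, and the authors' deposited table also calls Cyp4g1, as lower. The sugar transporter gene sut2 was similar in kind, with 6.67, 4.80 and 7.21 with dE2F1/dDP, against 4.52, 4.26 and 4.24 in the control, and a difference of 1.89 (adjusted p = 0.62) that was 0.01 in the miR-11 background. FBgn0010549, an ABC transporter gene given here by its FlyBase identifier, had 5.21, 5.29 and 4.72 with dE2F1/dDP, against 3.93, 4.11 and 3.88 in the control, a difference of 1.10 (adjusted p = 0.0369 in limma), and -0.06 in the miR-11 background. Cyp6a17, sut2 and FBgn0010549 were thus raised only in the cross with dE2F1/dDP alone. A difference in the genetic background of that cross cannot be told apart here from a response to dE2F1/dDP.

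CG14545 was higher in both backgrounds. It had 6.82, 6.87 and 7.18 with dE2F1/dDP, against 5.52, 4.41 and 4.37 in the control, a difference of 2.19 ± 0.29 (SE; adjusted p = 0.0369 in limma), and 1.54 in the miR-11 background without overlap. Its call held in 2 of 12 fits without 1 array, and that of its mean effect, 1.87, in all 12. CG15678, or pirk, which restrains the IMD immune pathway, had 6.45, 6.98 and 6.85 with dE2F1/dDP, against 4.87, 5.21 and 4.79 in the control, a difference of 1.81 (adjusted p = 0.0369). Discs with miR-11 alone had 6.53, 7.16 and 6.84, so the dE2F1/dDP level was not above that of another transgene (difference -0.09). Ady43A was of the same kind, at 0.94 against the control (adjusted p = 0.0394 in limma) and -0.29 against miR-11 alone. The calls of CG15678 and Ady43A held in 3 and 2 of 12 fits without 1 array.

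The genes that fell were of 2 kinds. CG13840 had 6.45, 6.22 and 6.82 with dE2F1/dDP, against 9.05, 9.71 and 9.08 in the control, a difference of -2.78 ± 0.37 (SE; adjusted p = 0.0369 in limma, called in 3 of 12 fits without 1 array). It had 6.23, 6.98 and 5.98 with dE2F1/dDP and miR-11, against 8.76, 9.37 and 10.20 with miR-11 alone, a difference of -3.05 (adjusted p = 0.0353). The mean effect of -2.91 (adjusted p = 0.00222) was called in all 12 such fits. Osi4, of the Osiris family, was of this kind, at -1.28 (adjusted p = 0.132) and at -1.70 in the miR-11 background (adjusted p = 0.0381 in limma).

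The second kind was low in every genotype with a UAS transgene. Gyc-89Da, an atypical soluble guanylyl cyclase, had 3.96, 4.04 and 4.08 with dE2F1/dDP, against 8.25, 7.49 and 7.29 in the control, a difference of -3.65 ± 0.23 (SE; adjusted p = 0.0001 in limma). It had 3.79, 4.18 and 4.18 with miR-11 alone, and the difference between dE2F1/dDP and miR-11 alone was -0.02. CG2177, or Zip102B, of the ZIP family of zinc transporters, had 4.24, 4.32 and 4.50 with dE2F1/dDP, against 7.65, 7.68 and 7.74 in the control, a difference of -3.33 ± 0.10 (SE; adjusted p = 1.58e-07), and 0.03 against miR-11 alone. CG6129, or Root, the ciliary rootlet gene, was at -1.72 (adjusted p = 0.00735, called in 9 of 12 fits without 1 array) and at 0.00 against miR-11 alone. CG31436 was at -1.97 (adjusted p = 0.0369, called in 4 of 12 such fits) and at -0.31 against miR-11 alone. For these 4 genes the driver control stood apart from the other genotypes. A difference in genetic background between the control and the transgenic crosses cannot be told apart here from a response to any UAS transgene.

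**Figure D5:**
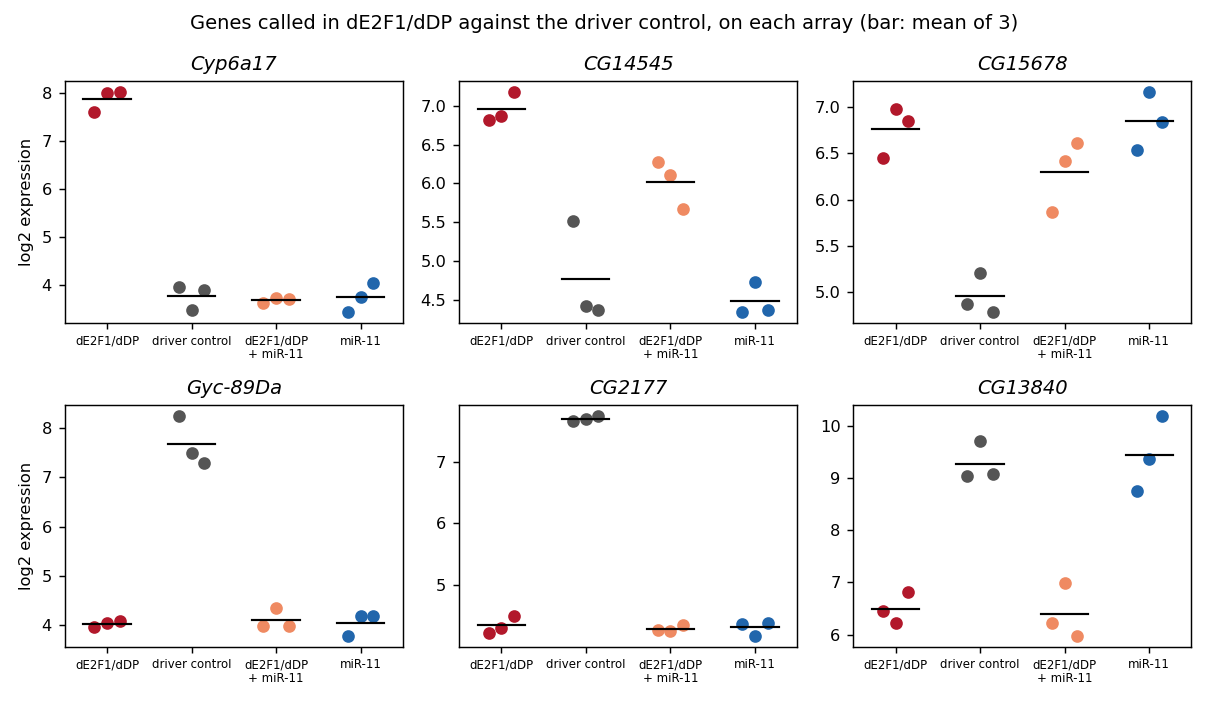
Log2 expression (y axis of each panel, own scale) of 6 genes called in dE2F1/dDP against the driver control, on each of the 12 arrays; each point is 1 array and the bar is the mean of 3. Cyp6a17 is high with dE2F1/dDP alone, CG14545 is higher and CG13840 lower with dE2F1/dDP in both backgrounds, CG15678 is high in all 3 transgenic genotypes, and Gyc-89Da and CG2177 are high in the driver control alone.

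The authors' deposited table, made with a rank product test, called more genes. At a pfp under 0.05 it lists 18 genes as higher (0.136% of 13281) and 28 as lower (0.211%) with dE2F1/dDP over the control. It calls 9 of the 11 genes called above. These genes were chosen on the same arrays, so the array counts describe the choice. Of its 18 higher genes 12 had dE2F1/dDP arrays that lay above all control arrays (background 3.37%), and 12 had a positive difference in the miR-11 background, as did 6019 of all 12770 genes. The median difference of the 18 was 1.71 against the control, 0.83 against miR-11 alone and 0.36 in the miR-11 background. Of its 28 lower genes 21 did not overlap (background 4.24%) and 25 were also below 0 in the miR-11 background, with medians of -1.67 against the control, -1.22 against miR-11 alone and -0.91 in the miR-11 background. The comparisons with the control and with miR-11 alone share the dE2F1/dDP arrays.

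Beside those already named, the genes called higher in the authors' deposited table include the salivary glue genes Sgs3 and Sgs4 and the ecdysone-induced gene Eig71Ee. Sgs3 had 13.53, 9.22 and 9.96 with dE2F1/dDP, against 10.25, 8.77 and 8.39 in the control, and Sgs4 had 11.51, 7.56 and 7.09 with dE2F1/dDP, against 7.93, 6.51 and 6.0 in the control. Eig71Ee had 10.53, 7.06 and 6.84 with dE2F1/dDP, against 7.85, 6.0 and 5.64 in the control, a difference of 1.65. All 3 overlapped. Among the dE2F1/dDP and control arrays they were highest on dE2F1/dDP replicate 1, which also had the highest median of the glue genes, 13.45. In the miR-11 background Sgs3, Sgs4 and Eig71Ee went the other way, at -2.96, -3.26 and -2.49. With miR-11 alone they were highest on replicate 2, at 13.35, 11.99 and 12.26. Others with a large difference were pr-set7 (1.77), a histone H4 methyltransferase, the semaphorin gene Sema-1a (1.65), CG33978 (1.58), CG41284 (1.51), CG10630 (1.51), the gene blanks, and kek5 (1.47). Of these pr-set7 and kek5 overlapped the control. In the miR-11 background pr-set7 was at 0.91, Sema-1a at 0.39, CG33978 at 0.38 and kek5 at 0.33. The same genes, in this order, were also higher on average with miR-11 alone than in the control, by 0.78, 1.10, 0.79 and 0.66. CG41284 had 6.78, 6.79 and 6.42 with dE2F1/dDP, against 4.94, 5.37 and 5.15 in the control, and was at 1.06 in the miR-11 background. CG10630 had 7.70, 7.59 and 7.95 with dE2F1/dDP, against 6.21, 5.97 and 6.54 in the control, and was at 0.86. Their adjusted p-values in limma were 0.0873 and 0.0866 against the control and 0.0209 and 0.0294 for the mean effect, called in 6 and 5 of 12 fits without 1 array.

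The lower genes of the authors' table include several with known sites of expression outside the disc. Cyp4g1, the P450 of hydrocarbon synthesis in oenocytes, had 3.98, 3.91 and 4.31 with dE2F1/dDP, against 7.10, 6.60 and 6.01 in the control, a difference of -2.50 (adjusted p = 0.0579 in limma), and -0.55 against miR-11 alone. jhamt, the juvenile hormone enzyme of the corpora allata, differed by -1.72, and by -0.19 against miR-11 alone. Obp44a (-1.68) overlapped, as did the antimicrobial peptide gene Def (-1.94) and CG9021 (-2.92), whose first dE2F1/dDP array was at 4.81 and whose replicate 3 was at 11.10. CG4250 (-2.23), CG14191 (-2.08), CG16704 (-1.92), CG15717 (-1.89), the glutathione transferase gene GstD9 (-1.57) and the larval cuticle gene Lcp65Ad (-1.44) did not overlap, and none of these passed the adjusted p in limma. In the miR-11 background GstD9 was at -0.28, and CG4250, CG14191, CG16704, CG15717 and Lcp65Ad lay between -1.22 and -1.72.

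Other gene groups gave few genes outside the array spread. Among 131 cuticle genes the median was -0.07, with 3 above and 7 below the control on all arrays (background 3.37% and 4.24%). The insulin-like peptide gene Ilp5, made by brain neurosecretory cells, had 3.79, 3.99 and 4.11 with dE2F1/dDP, against 7.04, 4.12 and 5.27 in the control, so its difference of -1.51 rested largely on control replicate 1. The Notch target list, with 15 measured genes, had a median of -0.10, with 1 above and 2 below the control on all arrays (background 3.37% and 4.24%). Its lowest gene, HLHm3, was at -0.39 without overlap, and at -0.08 with overlap in the miR-11 background. krimp, a piRNA pathway gene, had 7.11, 7.05 and 6.05 with dE2F1/dDP, against 7.59, 7.72 and 8.04 in the control, a difference of -1.05 (adjusted p = 0.772 in limma), while all 6 arrays with miR-11 lay between 5.13 and 6.04.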

How the data were processed

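Expression was measured in eye discs of 4 genotypes with 3 arrays each. The authors deposited log2 values for each probe set, and how background, normalization and summary were handled is not stated. Per the submitters' processing notes the R package affy was used, with no version given in the sources used here. The authors' deposited gene table gives, per the file headers, the average log2 fold change of each transgenic genotype over the control, p-values for higher and for lower expression, and a pfp score. It holds no array values, and its numbers are printed without SD or n.

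Of 18952 probe sets 183 Affymetrix controls were left out. The remaining 18769 were fitted in 1 model of 12 arrays and 4 genotypes, without covariates, in limma 3.58.1 (R 4.3.3, lmFit and eBayes, two-sided), with Benjamini-Hochberg adjustment over all of them and a call at an adjusted p under 0.05. The fit was checked on simulated data with noise drawn independently for each probe set and array. That check cannot show how the fit behaves under variation shared by many genes, such as the first component. The authors' genes were called at a pfp under 0.05. The number of arrays limits the precision, and array medians lay between 4.71 and 4.90.

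Probe sets were named by matching, not by a probe annotation. A gene was tied to a probe set where all 3 of its deposited fold changes equalled the differences of group means computed from the arrays within 0.0005, which 12762 genes did with exactly 1 probe set. Of the others 439 matched no probe set and 80 several, and 8 genes with a log2 change of at least 1 were then tied within 0.004. A gene has 1 probe set here, so disagreement between probe sets of a gene was not examined. Symbols are those of the table, and current names come from RefSeq genes (Release 6).

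Members and the 50 gene lists were chosen with earlier results of these data known. Named genes are E2f, Dp, w and the E2F targets, genes called in either source, and from each list the called genes and the largest positive and negative difference. Others, such as members that did not overlap, were chosen after their values were seen. "Did not overlap" means that all 3 arrays of a group lay beyond all 3 of the other.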

Additional observations from a re-analysis of the deposited data

Results flagged for a closer look

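The dE2F1/dDP difference itself differed between the backgrounds without and with miR-11 for 9 of 18769 probe sets (0.048%), at an adjusted p under 0.05 for the interaction in limma. The interaction is the difference against the driver control minus the difference in the miR-11 background.

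For 4 of them the difference was large against the driver control and small with miR-11. Cyp6a17 had an interaction of 4.16 (4.09 against the control, -0.07 in the miR-11 background). Gyc-89Da had -3.70 (-3.65 and 0.05), CG2177 had -3.32 (-3.33 and -0.02) and the probe set 1624543_s_at had -4.29 (-3.75 and 0.54). For the last 3, discs with miR-11 alone were already as low as those with dE2F1/dDP.

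For 3 others discs with miR-11 alone stood apart. The probe set 1629242_x_at had an interaction of -4.23 (-0.19 against the control, 4.05 in the miR-11 background), 1638428_at had -3.48 (-0.29 and 3.19), and 1633386_s_at had 2.33 (0.00 and -2.33).

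The remaining 2 had differences of opposite sign. The probe set 1631349_s_at had an interaction of 2.65 (1.02 and -1.63), and l(1)G0155 had -1.69 (-0.66 and 1.04), with 8.20, 8.54 and 8.28 in dE2F1/dDP discs, against 8.88, 8.97 and 9.14 in the control.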

How the results depend on the processing

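With 12 calls against the driver control as the main count, 7 were made with the replicate number as a block, 4 (1 higher, 3 lower) with only the arrays of the 2 groups and 61 with the first component as a covariate. With only those 6 arrays w, called in each fit without 1 array, had an adjusted p of 0.0682 in limma. Array weights gave 3271 calls, but the estimation of the weights did not converge and gave 165 to replicate 2 of miR-11 alone. Leaving out 1 array gave 5 to 19. Against miR-11 alone, 29 calls became 6 with only those 2 groups, 111 with the component and 11 to 77 without 1 array. In the miR-11 background 10 became 3 with the block, 3 after quantile normalization, 57 with the component and 3 to 48 without 1 array. The interaction's 9 became 5 after a filter on low values, 37 with the component and 7 to 16 without 1 array. The mean effect's 27 became 68 with the component and 11 to 58 without 1 array. The authors' 46 became 18 at a pfp under 0.01 and 77 under 0.1. The cause of these changes was not tested. Of 18 same-number array pairs 6 correlated above 0.1, so the numbers were not taken as pairing.

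No difference that changed sign had passed the test. In the main fit these differences lay between -0.57 (Hus1-like) and 0.47 (Rbf). With the component they were -0.06 (E2f), -0.06 (stg), -0.10 (Rbf), -0.01 (Ark), -0.09 (norpA), -0.04 (Nc) and 0.09 (Hus1-like). For rpr it was -0.02 after quantile normalization and -0.11 to 0.30 without 1 array, and for grim 0.05 with array weights and -0.12 to 0.02 without 1 array. Without 1 array Mcm6 ranged from -0.18 to 0.51, dpa from 0.00 to 0.68, both lowest without control replicate 1, and Ark from 0.00 to 0.05. The component covariate and the mean effect were added after seeing the data.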
